A study of Arabidopsis thaliana with 48 samples.

Results

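The genes described here encode proteins of the cytosolic ribosome of Arabidopsis thaliana. They are 60 of the 32678 genes counted in whole seedlings, and they were chosen by gene identifier, with each gene represented by its longest transcript model. The 60 genes fall into 32 families, of which 36 genes belong to the large subunit (names in RPL, and RPP0 of the stalk) and 24 to the small subunit (names in RPS). Of the families, 21 hold 2 or 3 paralogs among the 60, together 49 genes, and 11 are represented by 1 gene.

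Seedlings of the snrk1a1/a2 mutant, marked kd in the sample titles and called the mutant here, and of wild type were each sampled in 7 conditions: at 3, 4 and 5 days (d) after germination in the dark, at 4 and 5 d in light, and at 4 d with glucose in the dark and in light. Each of the 14 groups held 3 libraries made from total RNA. The mutant is named after the genes of the kinase subunits KIN10 and KIN11, and the labels state neither the alleles nor how the mutant was made. Nor do they give the glucose dose, when light began, or whether replicates were separate cultures, so p-values cover the spread of the sequenced samples alone. In whole seedlings, fewer cells of a type and less RNA per cell cannot be told apart.

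The cytosolic ribosome joins a small subunit, which reads the messenger RNA, to a large subunit, which forms the peptide bond, and each is built from ribosomal RNA and many proteins needed in equal number. In Arabidopsis almost every ribosomal protein is encoded by several paralogous genes, most of them active in the same tissues. The kinase TOR promotes the making of ribosomes when sugars are plentiful, while SnRK1, which becomes active when energy runs short, restrains growth.

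The promoters of plant ribosomal protein genes are known for short shared motifs, the telo-box and the site II element, and the stretches just before the start of 6 members are shown to make these visible. Each is the 150 bases before the start of the counted model, from the RefSeq assembly TAIR10.1 at the TAIR10 positions of the deposited tables, written 5′ to 3′ on the gene's strand. Capitals mark site II elements (TGGGCC or TGGGCT on either strand) and telo-boxes (AAACCCT on either strand). RPS6A (AT4G31700, chr4:15347728-15347877, minus strand) and RPS6B (AT5G10360, chr5:3260235-3260384, minus strand) encode the paralogs of S6, the small subunit protein phosphorylated by S6 kinase downstream of TOR. RPS2A (AT1G58380, chr1:21688882-21689031, plus strand) and RPS2C (AT2G41840, chr2:17461540-17461689, minus strand) encode S2, a protein on the side of the small subunit where messenger RNA enters. RPL5B (AT5G39740, chr5:15903165-15903314, plus strand) encodes L5, which binds the 5S ribosomal RNA, and RPL7D (AT3G13580, chr3:4433021-4433170, plus strand), a large subunit protein gene, had neither motif.
RPS6A: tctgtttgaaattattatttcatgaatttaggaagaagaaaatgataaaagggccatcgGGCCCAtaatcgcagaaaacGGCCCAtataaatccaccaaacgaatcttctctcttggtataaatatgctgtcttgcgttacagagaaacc
RPS6B: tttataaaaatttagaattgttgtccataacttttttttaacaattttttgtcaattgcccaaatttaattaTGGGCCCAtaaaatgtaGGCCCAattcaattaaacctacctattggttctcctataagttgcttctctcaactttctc
RPS2A: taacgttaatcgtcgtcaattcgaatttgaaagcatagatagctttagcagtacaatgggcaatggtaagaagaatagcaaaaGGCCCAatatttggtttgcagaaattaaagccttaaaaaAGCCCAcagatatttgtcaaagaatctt
RPS2C: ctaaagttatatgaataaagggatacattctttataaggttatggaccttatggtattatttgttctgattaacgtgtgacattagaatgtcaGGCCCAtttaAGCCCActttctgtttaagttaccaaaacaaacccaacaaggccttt
RPL5B: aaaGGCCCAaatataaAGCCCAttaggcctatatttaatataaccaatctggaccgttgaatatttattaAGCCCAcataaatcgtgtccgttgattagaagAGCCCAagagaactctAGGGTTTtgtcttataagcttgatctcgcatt
RPL7D: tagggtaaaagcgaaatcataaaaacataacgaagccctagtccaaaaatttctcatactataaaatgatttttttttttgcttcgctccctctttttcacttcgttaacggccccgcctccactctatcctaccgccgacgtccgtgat

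Both motifs were found in a larger share of the 60 genes than of all genes. In windows of 300 bases, from 250 bases before to 50 after the start, the telo-box was present in 48 of 60 members (80%), against 12.853% of the windows of all 32398 genes that had one. A site II element of either form was present in 53 members (88.333%), against 19.955% of all windows. Both motifs stood in 43 members (71.667%), against 3.692% of all windows. Relative to the 22432 tested genes with a window, the background shares were 13.405% for the telo-box, 23.6% for a site II element and 4.387% for both. The telo-boxes lay close to the start, with a median position of -8 and 57 of 61 matches within 60 bases of it, and of the stretches printed above the one of RPL5B alone holds a whole telo-box. The site II elements lay farther upstream, with a median position of -83 and 106 of 135 matches between 120 and 30 bases before the start. Among the members, those with a telo-box had a median log2 fold change of 1.37 between mutant and wild type at 4 d in the dark, and the 12 without one had 1.39. RPL7D and RPL23aA were the 2 members with no match, which says only that these letters are not in the window.

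**Figure D1:**
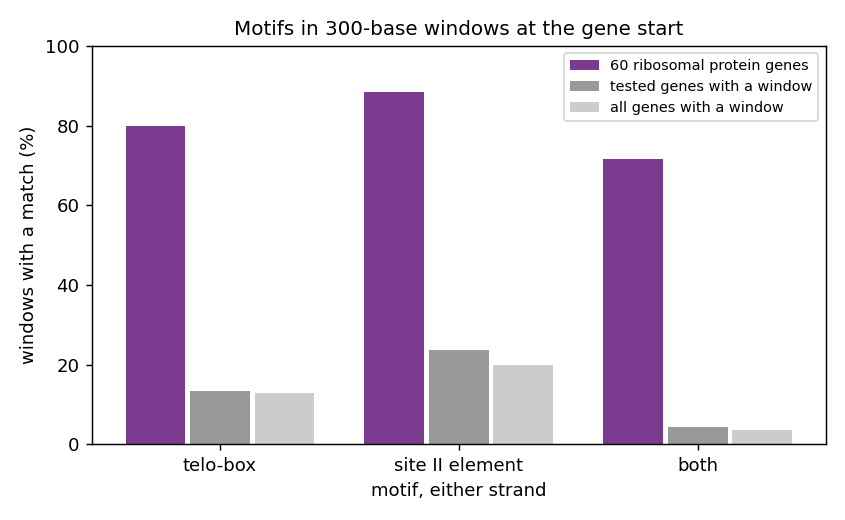
Share of 300-base windows at the gene start (vertical axis, percent) that hold a telo-box, a site II element or both, for the 60 ribosomal protein genes, for 22432 tested genes and for all 32398 genes with a window. The bars of the 60 genes stand at 80%, 88.333% and 71.667%, each far above the grey bars.

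The 60 genes took up a small and variable part of the counts. At 4 d in the dark they held 2.97%, 2.95% and 3.11% of all counts in the mutant libraries, against 0.967%, 1.12% and 0.936% in the wild type libraries. They held, at 5 d in light, 2.56%, 3.19% and 2.54% in the mutant, against 0.984%, 1.16% and 1.03% in wild type. Over the 42 libraries the share ran between 0.936% and 3.76%, and in every condition without glucose each mutant library lay above each wild type library. In the mutant the mean share stayed within a narrow band, at 2.59% ± 0.334 (SD, n = 3 here and below), 3.01% ± 0.0860 and 2.73% ± 0.123 at 3, 4 and 5 d in the dark and 3.16% ± 0.519 and 2.76% ± 0.369 at 4 and 5 d in light. In wild type it was 1.74% ± 0.399, 1.01% ± 0.0980 and 1.18% ± 0.185 at 3, 4 and 5 d in the dark and 1.67% ± 0.323 and 1.06% ± 0.0892 at 4 and 5 d in light. With glucose at 4 d the mutant held 2.78% ± 0.403 in the dark, against 2.22% ± 0.439 in wild type. The dark glucose libraries 1, 2 and 3 held 2.95%, 2.32% and 3.08% in the mutant, against 2.22%, 2.66% and 1.79% in wild type, so the groups overlapped, and without both libraries 2 they did not. In light with glucose the mutant held 3.00% ± 0.0673, against 2.23% ± 0.121 in wild type.

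**Figure D2:**
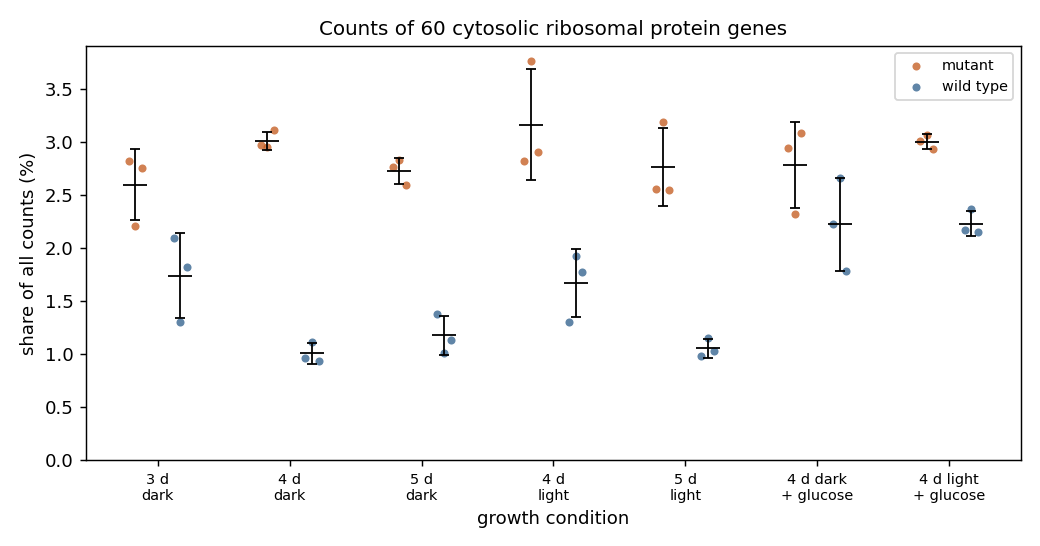
Summed counts of the 60 genes as a percent of all counts (vertical axis) in each library, by growth condition (horizontal axis), with mutant libraries left of wild type. Points are libraries and bars the mean ± SD of 3; the lowest wild type means, 1.01% at 4 d in the dark and 1.06% at 5 d in light, stand beside mutant means of 3.01% and 2.76%.

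Library totals ran from 4956025 to 26126836 counts, and all 60 members passed the filter on low counts. KIN11 was called lower in the mutant in 2 of 7 conditions and KIN10 in none, and KIN10 was called higher at 4 and 5 d in light (1.24 and 1.71 on the log2 scale), so reads of these genes do not check the genotype labels. KIN10 was high in 3 mutant light libraries (number 1 at 4 d and numbers 1 and 3 at 5 d), and without them it was not called (0.20 and 0.35). In the dark with glucose, the libraries numbered 2 stood nearer the other genotype. LHCA4, a light-harvesting protein gene, had 474, 933 and 582 CPM in the libraries labelled mutant, against 1156, 476 and 1105 CPM in those labelled wild type. Counts of members that rest on these libraries are given with and without them. CPM were counts scaled to a common library size, with library totals adjusted by TMM, a scaling that assumes that most genes do not differ between libraries.

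Levels of the members differed widely from each other. Averaged over the 42 libraries, they ran from 11.5 CPM per kilobase (kb) of the counted model in RPSaB to 1203 in RPL18B, with a median of 346. RPL18B was followed by RPS8A at 1005, RPS9B at 876 and RPL19A at 825 CPM per kb. The lowest after RPSaB were RPL10B at 26.7, RPL3B at 29.8, RPP0C at 33.2 and RPS9C at 33.5 CPM per kb, each a minor paralog within its family. Across the 14 groups the lowest mean of a member fell in wild type for all 60: at 4 d in the dark for 40, at 5 d in light for 12, at 5 d in the dark for 7 and at 3 d in the dark for RPS9C. The highest mean fell in the mutant for all but RPS2C, most often at 4 d in light (30 members) and at 4 d in light with glucose (22 members). The highest group mean was a median of 3.16 times the lowest, from 1.51 times in RPS2C to 13.97 times in RPL3B.

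**Figure D3:**
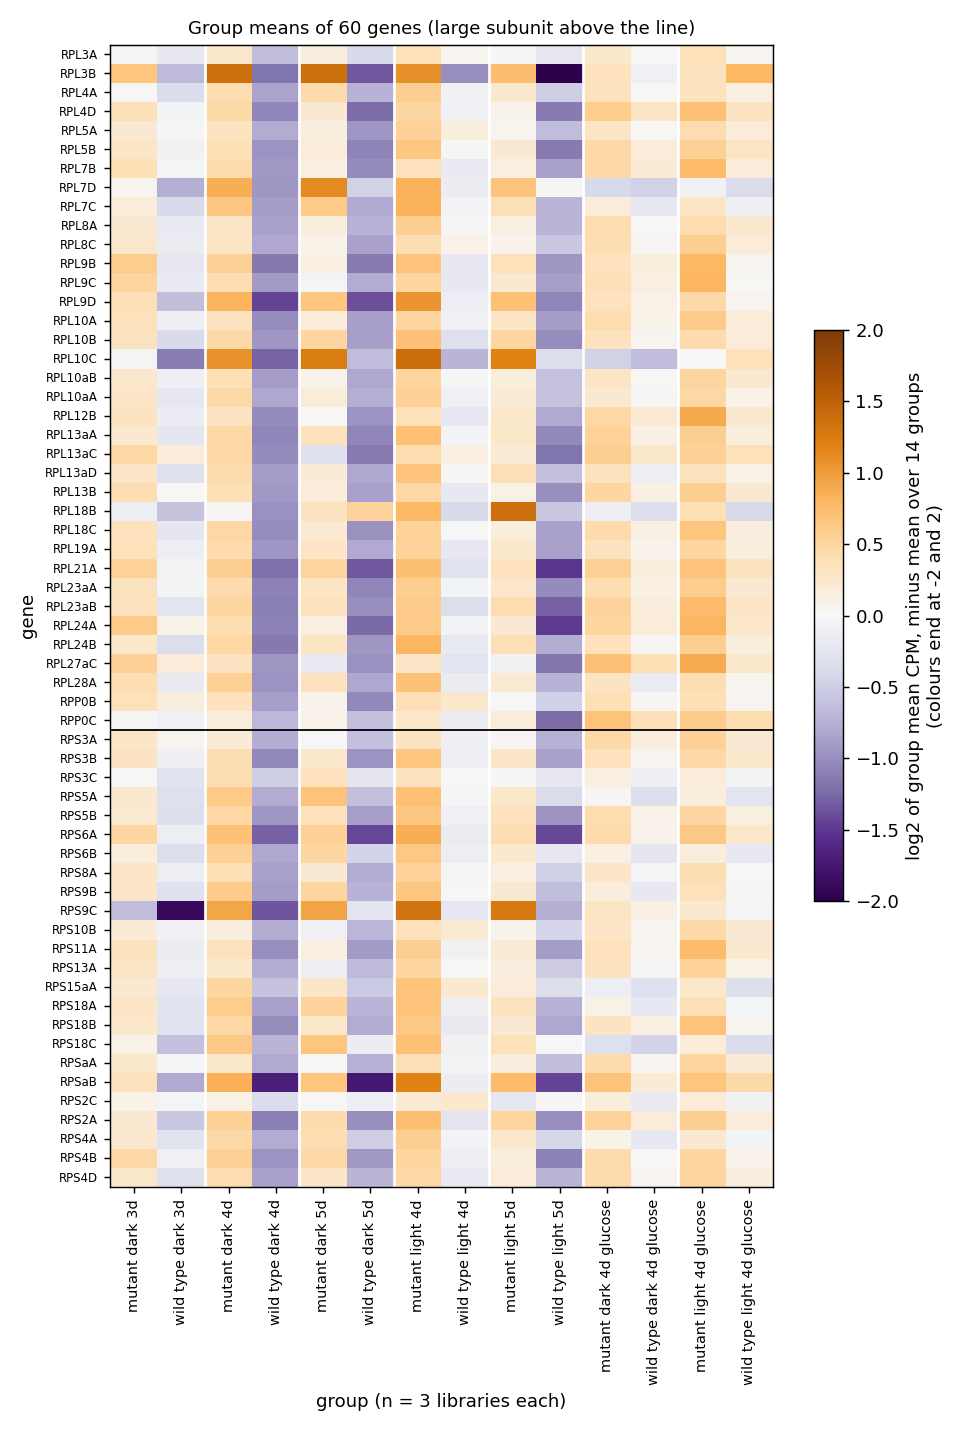
Group means of the 60 genes (rows, large subunit above the line) in the 14 groups (columns, mutant left of wild type in each condition), as log2 of the mean CPM minus its mean over the groups. Wild type is low at 4 and 5 d in the dark and at 5 d in light across nearly all rows, and RPL3B, RPL10C, RPS9C and RPSaB show the widest ranges.

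The mutant was set against wild type at each age and light condition. At 4 d in the dark all 60 members were called higher in the mutant, where 29.5% of all 22586 tested genes were called higher and 28.5% lower. Calls are an adjusted p under 0.05 in edgeR's quasi-likelihood test with Benjamini-Hochberg adjustment, and fold changes are log2, mutant over wild type unless named otherwise, ± the standard error of the fit, n = 3 per group. The median of the members was 1.38, with a range of 0.45 to 2.54, beside a median of all tested genes of 0.01. In all 60 every mutant library lay above every wild type library, as it did in 33.8% of the tested genes.

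Among small subunit genes at 4 d in the dark, the largest rise was in RPSaB (AT3G04770, chr3:1309294-1310887, minus strand, 4 exons in TAIR10), which encodes a paralog of Sa, related to the laminin receptor protein of mammals, with CPM of 19.8, 21.2 and 22.0 in the mutant, against 3.77, 2.77 and 4.35 in wild type (log2 2.54 ± 0.30, adjusted p = 1.48e-08). RPS9C (AT5G39850, chr5:15950022-15951425, plus strand, 3 exons), for the S9 protein near the decoding site, had CPM of 45.9, 35.1 and 58.8 in the mutant, against 10.2, 8.83 and 9.86 in wild type (log2 2.28 ± 0.23). These are genes of low level, and in each the groups did not overlap. Of the abundant small subunit genes, RPS6A had CPM of 759, 754 and 783 in the mutant, against 186, 223 and 169.7 in wild type, and its paralog RPS6B had CPM of 704, 713 and 753 in the mutant, against 253, 298 and 289 in wild type. In wild type every library had less RPS6A than RPS6B per kb, and in the mutant every library had more. The fold change was 1.99 ± 0.23 for RPS6A and 1.37 ± 0.18 for RPS6B. Of the S3 paralogs, whose protein lines the channel where messenger RNA enters, RPS3A rose by 0.96, RPS3C by 0.92 and RPS3B by 1.45. RPS2C had CPM of 665, 726 and 678 in the mutant, against 474, 509 and 531 in wild type, and its 0.45 ± 0.16 was the smallest change of the 60 (adjusted p = 0.0187). It was 0.40 without wild type library 1 and 0.41 without mutant library 2, and not called in either case. The other small subunit genes lay between 0.92 (RPS10B) and 1.66 (RPS2A), among them RPS5A, whose promoter is widely used to mark dividing cells, at 1.41.

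Among large subunit genes at 4 d in the dark, RPL3B (AT1G61580, chr1:22720692-22723152, minus strand, 6 exons), a paralog of the L3 protein next to the peptidyl transferase centre, had CPM of 89.9, 75.4 and 78.1 in the mutant, against 13.999, 16.5 and 11.3 in wild type (log2 2.53 ± 0.27, adjusted p = 4.11e-09). RPL10C (AT1G66580, chr1:24839165-24840612, plus strand, 4 exons), a paralog of L10, which joins the subunit late in its assembly, had CPM of 983, 766 and 1011 in the mutant, against 166, 169 and 209 in wild type (log2 2.34 ± 0.23). RPL10C was an abundant gene, unlike RPL3B. RPL9D, a paralog of L9, had CPM of 124, 120.3 and 147 in the mutant, against 27.6, 26.6 and 26.8 in wild type. Stalk and factor-binding genes rose by 1.23 (RPP0B, the base of the stalk), 0.84 (RPP0C) and 1.35 (RPL12B, beside the stalk). Genes of proteins at the exit of the peptide tunnel rose by 1.52 (RPL23aA) and 1.599 (RPL23aB). RPL24B, known in Arabidopsis for its role in translation reinitiation, rose by 1.63, and RPL5A and RPL5B of the 5S particle rose by 1.11 and 1.36. RPL3A rose least of the large subunit after RPP0C, by 0.89 ± 0.17. The 36 large subunit genes had a median of 1.39 and the 24 small subunit genes 1.36, and the difference between these medians is small beside the range of the members.

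**Figure D4:**
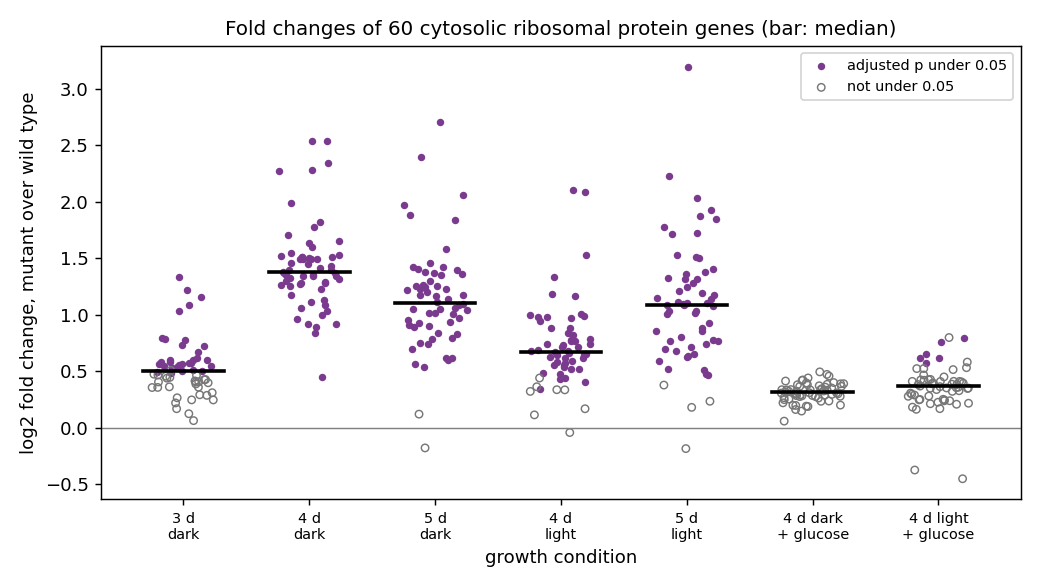
Log2 fold change, mutant over wild type (vertical axis), of each of the 60 genes in the 7 conditions (horizontal axis). Filled points have an adjusted p under 0.05, open points do not, and bars are medians, the highest being 1.38 at 4 d in the dark and the lowest 0.31 at 4 d in the dark with glucose.

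At 3 d in the dark the difference was smaller. Of the 60 members, 31 were called higher and none lower, where 17.3% of tested genes were called higher. All 60 had positive fold changes, with a median of 0.50, beside 0.01 for all tested genes. In 40 of 60 every mutant library lay above every wild type library, as in 25.8% of tested genes. The largest rises were in RPL3B at 1.33 ± 0.26 (adjusted p = 0.000205), RPS9C at 1.22 ± 0.23 and RPSaB at 1.15 ± 0.27, low-level paralogs that were also among the largest at 4 d. RPL3B had CPM of 47.2, 65.0 and 38.3 in the mutant, against 26.8, 15.9 and 17.2 in wild type, and the groups did not overlap. RPL3A, with CPM of 715, 711 and 861 in the mutant, against 755, 509.6 and 769.9 in wild type, was not called (adjusted p = 0.481). RPS6A was called at 0.60 ± 0.22 and RPS6B at 0.51 ± 0.18. Neither was called without wild type library 2 (0.39 for RPS6A), mutant library 1 (0.53) or mutant library 3 (0.58). The smallest called changes were in RPL10aA (0.50 ± 0.17), RPL19A (0.49 ± 0.18) and RPS11A (0.48 ± 0.19). The count depended on single libraries: it was 9 without wild type library 2, 10 without mutant library 1 and 16 without mutant library 3, and 20 when only these 2 groups were fitted. The share of all tested genes called in these fits is not given here.

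At 5 d in the dark 58 members were called higher and none lower, where 29.9% of tested genes were called higher, and their median was 1.10. Every mutant library lay above every wild type library in 58 members and in 32.1% of tested genes. RPL3B had CPM of 80.6, 88.1 and 74.6 in the mutant, against 12.4, 13.05 and 11.9 in wild type (log2 2.70 ± 0.28). RPSaB (2.39 ± 0.31), RPL9D (2.05 ± 0.24), RPS6A (1.97 ± 0.23) and RPL10C (1.89 ± 0.23) followed. RPS6B was called at 0.93 ± 0.18, with CPM of 692, 725 and 659.7 in the mutant, against 405, 293 and 391 in wild type. The lowest called members were RPS3C at 0.60 ± 0.15, RPS13A, for a small subunit protein, at 0.57 ± 0.17, and RPL3A at 0.54 ± 0.17, and RPS13A was not called without wild type library 2 (0.42). The 2 members not called were RPS2C (0.12 ± 0.16, adjusted p = 0.536) and RPL18B (-0.18 ± 0.35, adjusted p = 0.675). RPL18B had CPM of 1346, 1040.0 and 1181 in the mutant, against 2195, 1006 and 835 in wild type, and wild type library 1 stood far above the other libraries. Without it the fold change was 0.37 and not called.

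In light at 4 d the mutant again had higher levels, by less than in the dark. Of the members, 52 were called higher and none lower, where 28.8% of tested genes were called higher, with a median of 0.67. The mutant libraries all lay above those of wild type in 45 members and in 30.1% of tested genes. RPL10C had CPM of 689, 1441 and 1311 in the mutant, against 236, 299 and 267 in wild type (log2 2.10 ± 0.23). RPL3B rose by 2.09 ± 0.27 and RPS9C by 1.52 ± 0.22, and these 3 genes changed most. RPS6A rose by 1.01 ± 0.23 and RPS6B by 0.74 ± 0.18. The lowest called were RPS3A (0.43), RPP0C (0.41) and RPS3C (0.35). None of these was called without wild type library 1 (0.32, 0.26 and 0.27), and the same held without wild type library 3 or mutant library 2. The 8 members not called were RPS15aA (0.44), RPL5A (0.36), RPL8C (0.34), RPL3A (0.34), RPL13aC (0.32), RPS10B (0.17), RPP0B (0.11) and RPS2C (-0.04). Mutant library 2 had the highest share of counts in the series, 3.76%, and without it 31 members were called higher. Without mutant library 1, one of the 3 with high KIN10, and the 5 d libraries like it, 53 were called.

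At 5 d in light 56 members were called higher and none lower, where 33.4% of tested genes were called higher. The groups did not overlap, mutant above wild type, in 57 members and in 28.4% of tested genes. The median of the members was 1.09, beside 0.19 for all tested genes; scaled by library totals alone, all genes shifted by 0.45 and the median of the members was 1.53. RPL3B had CPM of 37.6, 86.6 and 34.5 in the mutant, against 5.77, 5.83 and 5.82 in wild type, the widest gap of any member in any condition (log2 3.20 ± 0.30, adjusted p = 1.37e-10). RPSaB rose by 2.22 ± 0.31 and RPS9C by 2.03 ± 0.23. RPS6A had CPM of 518, 849.6 and 512 in the mutant, against 154, 187 and 182 in wild type (log2 1.85 ± 0.23), whereas RPS6B had CPM of 489, 766 and 505 in the mutant, against 417, 397 and 461 in wild type (log2 0.46 ± 0.18). RPS6A thus rose strongly and RPS6B was the lowest of the called members, next to RPP0B at 0.48 and RPS10B at 0.51. RPS6B was not called without wild type library 1 (0.45), wild type library 2 (0.41) or mutant library 2 (0.22). RPL10C rose by 1.53 ± 0.22. The 4 members not called were RPS18C (0.38), RPS3C (0.23), RPL3A (0.18) and RPS2C (-0.18). With mutant libraries 1 and 3 left out, 57 members were called and the median was 1.36, with the remaining mutant library assumed to vary like those of other groups. Then RPL3B stood at 3.93, RPSaB at 3.02, RPS6A at 2.32 and RPS6B at 0.89, all called.

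RPL18B (AT3G05590, chr3:1621457-1623014, plus strand, 5 exons), for a large subunit protein, followed a pattern of its own over libraries. At 5 d in light it had CPM of 2791, 1081 and 3371 in the mutant, against 411, 949 and 548 in wild type, and KIN10 had CPM of 614, 174 and 589 in the mutant, against 122, 191 and 108 in wild type. Mutant libraries 1 and 3 were high in both genes. At 4 d in light RPL18B had CPM of 2746, 1139.9 and 1001 in the mutant, against 722, 779 and 649 in wild type, and KIN10 had CPM of 541, 123 and 149 in the mutant, against 136, 111 and 96.5 in wild type. Here mutant library 1 was high in both. Wild type library 1 at 5 d in the dark, with the highest RPL18B of its group, also had the highest KIN10 of its group, 256, 118 and 141 CPM in libraries 1, 2 and 3. RPL18B was called higher at 5 d in light (1.92 ± 0.36) and at 4 d in light (1.18 ± 0.35); without the 3 mutant light libraries it stood at 0.80 (adjusted p = 0.0626 in edgeR) and 0.53 (adjusted p = 0.124 in edgeR). The part of the KIN10 difference in these values was not tested.

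The direction was shared across conditions. In 56 of the 60 the fold change was positive in all 7 conditions, as in 15.2% of tested genes, and 30 were called higher in all 5 conditions without glucose, as were 11.5% of tested genes. The 30 cannot exceed the count at 3 d in the dark, which depended on single libraries, and in the 4 conditions at 4 and 5 d without glucose 49 members were called higher in each, as were 16.7% of tested genes. The fold changes at 4 d in the dark and at 5 d in light, which share no libraries, had a Spearman correlation of 0.671 over the 60 genes, and those at 4 d and 5 d in the dark had 0.888. Genes are not independent replicates, and these values describe the ordering only. The 9 members with a mean level under 100 CPM per kb had a median of 1.82 at 4 d in the dark, and the 51 others had 1.35. The same split gave 1.51 and 1.03 at 5 d in light.

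The dark time course shows in which genotype the levels moved. In wild type at 4 d against 3 d 49 members fell and none rose, where 12.0% of tested genes fell, with a median log2 change of -0.75. RPS6A had 186, 223 and 169.7 CPM at 4 d, against 513, 296 and 499 CPM at 3 d, a change of -1.18 ± 0.23. RPL13aC (-1.21 ± 0.21) and RPL24A (-1.18 ± 0.22), both of the large subunit, fell as far. Without wild type 3 d library 1, 32 members fell. In the mutant 6 members rose and none fell between the same ages, where 11.5% of tested genes rose and 12.7% fell, with a median of 0.13. The 6 were RPS9C (1.58 ± 0.22), RPL10C (1.10 ± 0.22), RPL7D (0.84 ± 0.19), RPL3B (0.69 ± 0.25), RPS18C (0.52 ± 0.18) and RPS3C (0.39 ± 0.15). When 1 library at a time was left out, 3 to 4 were called, and RPS3C lost its call each time. The count was 3 without mutant 3 d library 3, or without mutant 4 d library 2 or 3.

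The difference between the genotypes in this step was itself tested. The change from 3 to 4 d was more positive in the mutant for 51 of 60 members, where 5.46% of tested genes passed in that direction, with a median difference of 0.90. RPSaB (1.39 ± 0.40), RPS6A (1.39 ± 0.32) and RPL10C (1.26 ± 0.31) differed most. The count depended on the libraries: it was 11 and 9 without wild type 3 d libraries 1 and 3, 22 and 10 without wild type 4 d libraries 1 and 3, 9 without mutant 3 d library 2, and 33 and 19 without mutant 4 d libraries 2 and 3. From 4 to 5 d little more moved. In wild type RPL18B (1.497 ± 0.36), RPS9C (1.10 ± 0.23) and RPS18C (0.58 ± 0.18) rose and none fell, where 4.91% of tested genes rose and 4.51% fell. In the mutant RPL13aC alone was called, at -0.76 ± 0.20, where 3.63% of tested genes rose and 7.93% fell. Without wild type 5 d library 1, 1 member rose in wild type, and without mutant 5 d library 2 or 3 none fell in the mutant. No member passed the test of the genotype difference from 4 to 5 d, where 0.0753% of tested genes passed upward and 0.159% downward. At an unadjusted p under 0.05, 4 members did, all lower in the mutant, and with DESeq2 1 did. For counts at an unadjusted p, here and below, the share of all tested genes was not computed.

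Light against dark was compared at 4 and 5 d in each genotype. In wild type at 4 d 57 members were higher in light and none lower, where 14.4% of tested genes were higher, with a median of 0.84. RPS6A had 304, 511 and 467 CPM in light, against 186, 223 and 169.7 CPM in the dark (1.15 ± 0.23, light over dark). RPSaB (1.56 ± 0.30) and RPL9D (1.33 ± 0.24) rose most, and RPL18B (0.59), RPL10C (0.56) and RPL3B (0.18) were not called. In the mutant at 4 d no member was called, where 1.62% of tested genes were higher and 0.748% lower in light; the median was 0.13, 1 member had an unadjusted p under 0.05, and DESeq2 called none. Without the 3 mutant light libraries with high KIN10 none was called either, with a median of 0.26. The difference between the genotypes in the light response at 4 d passed for 16 members, all lower in the mutant, where 4.34% of tested genes passed in that direction and 4.82% in the other, with a median of -0.68. That count depended on single libraries. In wild type it was 2 and 1 without dark libraries 1 and 3, and 27, 1 and 2 without light libraries 1, 2 and 3. In the mutant it was 6, 6 and 4 without dark libraries 1, 2 and 3, and 2, 46 and 5 without light libraries 1, 2 and 3. DESeq2 gave 31.

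At 5 d light made little difference to the members in either genotype. In wild type RPP0B (0.57 ± 0.21) and RPL7D (0.48 ± 0.19) were higher in light, where 16.5% of tested genes were higher. RPP0C (-0.61 ± 0.18), RPL18B (-1.08 ± 0.35) and RPL3B (-1.10 ± 0.31) were lower, where 18.9% of tested genes were lower, so the shares of members were below those of all genes. Without any one of the 6 libraries at most 1 member was higher in light, and without wild type dark library 1 only 1 was lower. In the mutant no member was called, where 6.8% of tested genes were higher and 4.95% lower in light; 2 higher and 4 lower had an unadjusted p under 0.05, and DESeq2 called 1 higher. Without mutant light library 2, 1 member was higher and 7 were lower. The light response at 5 d differed between the genotypes for RPL18B (2.10 ± 0.50) and RPP0C (0.70 ± 0.24), more positive in the mutant, and for RPL7D (-0.93 ± 0.27), more negative. Of tested genes 16.2% and 11.2% passed in these directions, and without the 3 mutant light libraries RPL18B did not pass (0.91, adjusted p = 0.219 in edgeR). The count of more positive members was 1 without wild type dark library 1, wild type light library 1 or 2, mutant dark library 2 or 3, or mutant light library 2, and that of more negative members was 3 without wild type dark library 1 and 5 without mutant light library 2.

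Glucose was given at 4 d only, and all glucose libraries belong to the second series of titles while the untreated 4 d libraries belong to the first, so a difference between the series cannot be told apart from glucose. In wild type in the dark 56 members were higher with glucose and none lower, where 22.0% of tested genes were higher, with a median of 0.98. RPS6A had 515, 579.8 and 386 CPM with glucose, against 186, 223 and 169.7 CPM without. RPSaB (1.88 ± 0.30, glucose over none), RPL9D (1.55 ± 0.24) and RPS9C (1.47 ± 0.23) rose most, and RPL18B (0.66), RPS15aA (0.30), RPS18C (0.26) and RPS2C (0.17) were not called. In the mutant in the dark only RPP0C rose (0.52 ± 0.16), where 19.3% of tested genes rose. There 9 members fell, where 21.4% of tested genes fell, and the median was -0.06. RPL10C had 314, 284 and 362 CPM with glucose, against 983, 766 and 1011 CPM without (-1.52 ± 0.22), and RPL7D (-1.27 ± 0.19) and RPL3B (-1.005 ± 0.26) also fell. Without mutant library 3 of the untreated group 5 members fell, and without the library labelled mutant 2 of the glucose group 4 fell and 2 rose.

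The response to glucose in the dark was more negative in the mutant for 57 of 60 members, where 19.7% of tested genes passed in that direction, with a median difference of -1.08. RPL10C (-2.14 ± 0.31), RPL3B (-2.09 ± 0.37) and RPS9C (-2.09 ± 0.32) differed most, and RPS2C (-0.11), RPP0C (-0.54) and RPL18B (-0.78) did not pass. With glucose in the dark no member was called between mutant and wild type, where 0.0% of tested genes were called in either direction, so no gene could be told apart in this comparison. The median was 0.31, and DESeq2 called no member. At an unadjusted p under 0.05, 10 members were higher, a count with no share of all tested genes to set beside it. All 3 libraries labelled mutant lay above those labelled wild type in 9 members and in 3.33% of tested genes. Without both libraries numbered 2, 2 members were called higher in the mutant with a median of 0.52. The count of rises with glucose in wild type was then 50 with a median of 0.84, and that of differences between the genotypes was 39 with a median of -0.84.

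In light, glucose moved fewer members. In wild type 7 were higher and 1 lower with glucose, where 18.1% and 18.3% of tested genes were, and the median was 0.23. Scaled by library totals alone, 32 were higher and none lower. That scaling shifted all genes by 0.27, and the share of tested genes called under it is not given here. RPL3B had 55.8, 62.8 and 45.4 CPM with glucose, against 12.2, 18.1 and 17.2 CPM without (1.79 ± 0.27). RPL10C rose by 1.07 ± 0.22, and RPS15aA, of the small subunit, was the member that fell (-0.56 ± 0.20). The count of rises was 2 without untreated library 1, 11 without untreated library 2 and 4 without glucose library 2, and RPS15aA was not called without untreated library 2 or 3 or glucose library 1 or 3. In the mutant 2 rose and 9 fell, where 19.8% and 23.2% of tested genes did. RPL10C (-1.40 ± 0.22), RPS9C (-1.08 ± 0.22) and RPL7D (-0.91 ± 0.19) fell most, while RPL27aC (0.59 ± 0.18) and RPL12B (0.53 ± 0.18) rose. Without untreated library 2, 3 members fell, and without glucose library 1 or 3, 5 fell. Without untreated library 1 or 3, or glucose library 1, 1 member rose.

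The response to glucose in light was more negative in the mutant for 5 members, where 16.0% of tested genes passed, namely RPL3B (-2.54 ± 0.37), RPL10C (-2.47 ± 0.31), RPS9C (-1.24 ± 0.31), RPSaB (-1.13 ± 0.38) and RPL10B (-0.75 ± 0.26). The count was 3 without untreated wild type library 1 or untreated mutant library 2, and 8 without untreated mutant library 1. With glucose in light 6 members were higher in the mutant than in wild type, and none lower, where 4.29% of tested genes were higher and 5.17% lower, with a median of 0.37. The mutant libraries lay above those of wild type without overlap in 46 members and in 16.5% of tested genes. The 6 called were RPL9C (0.80 ± 0.20), RPL9B (0.75 ± 0.22), RPL12B (0.66 ± 0.18), RPL27aC (0.62 ± 0.18), RPS18B (0.61 ± 0.19) and RPL7B (0.58 ± 0.18). RPL3B (-0.45 ± 0.26, adjusted p = 0.278) and RPL10C (-0.37 ± 0.22, adjusted p = 0.296) had negative values that were not called. None were called without wild type library 1 or without mutant library 1, 1 without wild type library 3 and 2 without mutant library 3, and 25 when only these 2 groups were fitted. The share of 4.29% is that of the fit of all 14 groups, and no share is given here for the other fits.

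Paralogs of 1 protein were compared by their share of the summed CPM per kb of the family's members among the 60, in each library. Any paralog outside the 60 is not in these sums. In 15 of the 21 families the same paralog led in all 42 libraries, and in 6 (RPL4, RPL10, RPL10a, RPS3, RPS4 and RPS6) the lead changed. RPS6A held 54.3%, 53.8% and 53.4% of S6 in the mutant, against 44.7%, 45.2% and 39.3% in wild type at 4 d in the dark. It held, at 5 d in light, 53.9%, 55.0% and 52.8% in the mutant, against 28.9%, 34.2% and 30.3% in wild type. In both conditions, and at 5 d in the dark (52.1% ± 1.33 in the mutant, against 34.4% ± 2.81 in wild type), the groups did not overlap. With glucose the shares were close, at 56.8% ± 0.161 in the mutant and 56.3% ± 2.03 in wild type in the dark and 59.5% ± 1.17 in the mutant and 59.2% ± 0.904 in wild type in light. Library by library in the dark with glucose, RPS6A held 56.6%, 56.8% and 56.9% in the mutant, against 58.4%, 56.1% and 54.4% in wild type, overlapping with or without libraries 2. The groups also overlapped at 3 d in the dark, with 58.0%, 55.5% and 56.6% in the mutant, against 56.6%, 50.3% and 56.7% in wild type. The shares are a description and were not tested.

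RPL10C moved over the widest range of any paralog. Its share of L10 was 47.2%, 56.8% and 61.2% in the mutant, against 34.4%, 29.2% and 30.0% in wild type at 4 d in light. At 4 d in the dark it was 53.0% ± 3.97 in the mutant and 36.4% ± 4.16 in wild type. The mutant also stood above wild type without overlap at 3 d in the dark, with 37.0%, 30.6% and 34.0% in the mutant, against 24.9%, 28.8% and 23.7% in wild type, and at 5 d in the dark, with 58.5%, 57.0% and 60.4% in the mutant, against 39.5%, 47.6% and 48.2% in wild type. At 5 d in light it held 57.3%, 59.0% and 50.6% in the mutant, against 52.7%, 49.9% and 49.03% in wild type, and the groups overlapped. With glucose in light the order was the other way, with 32.4%, 27.3% and 33.4% in the mutant, against 41.2%, 44.2% and 45.4% in wild type. The lowest group mean of RPL10C was 25.8% (wild type, 3 d dark) and the highest 58.6% (mutant, 5 d dark). RPL3B remained a minor paralog throughout, with 5.81%, 9.72% and 5.02% of L3 in the mutant, against 0.912%, 1.06% and 0.888% in wild type at 5 d in light. Its group means ran between 0.952% and 9.42%. RPS2A held 12.2%, 13.4% and 9.66% of the sum of RPS2A and RPS2C in the mutant at 5 d in light, against 3.48%, 4.90% and 3.82% in wild type. It is the counterpart of the near-constant RPS2C.

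**Figure D5:**
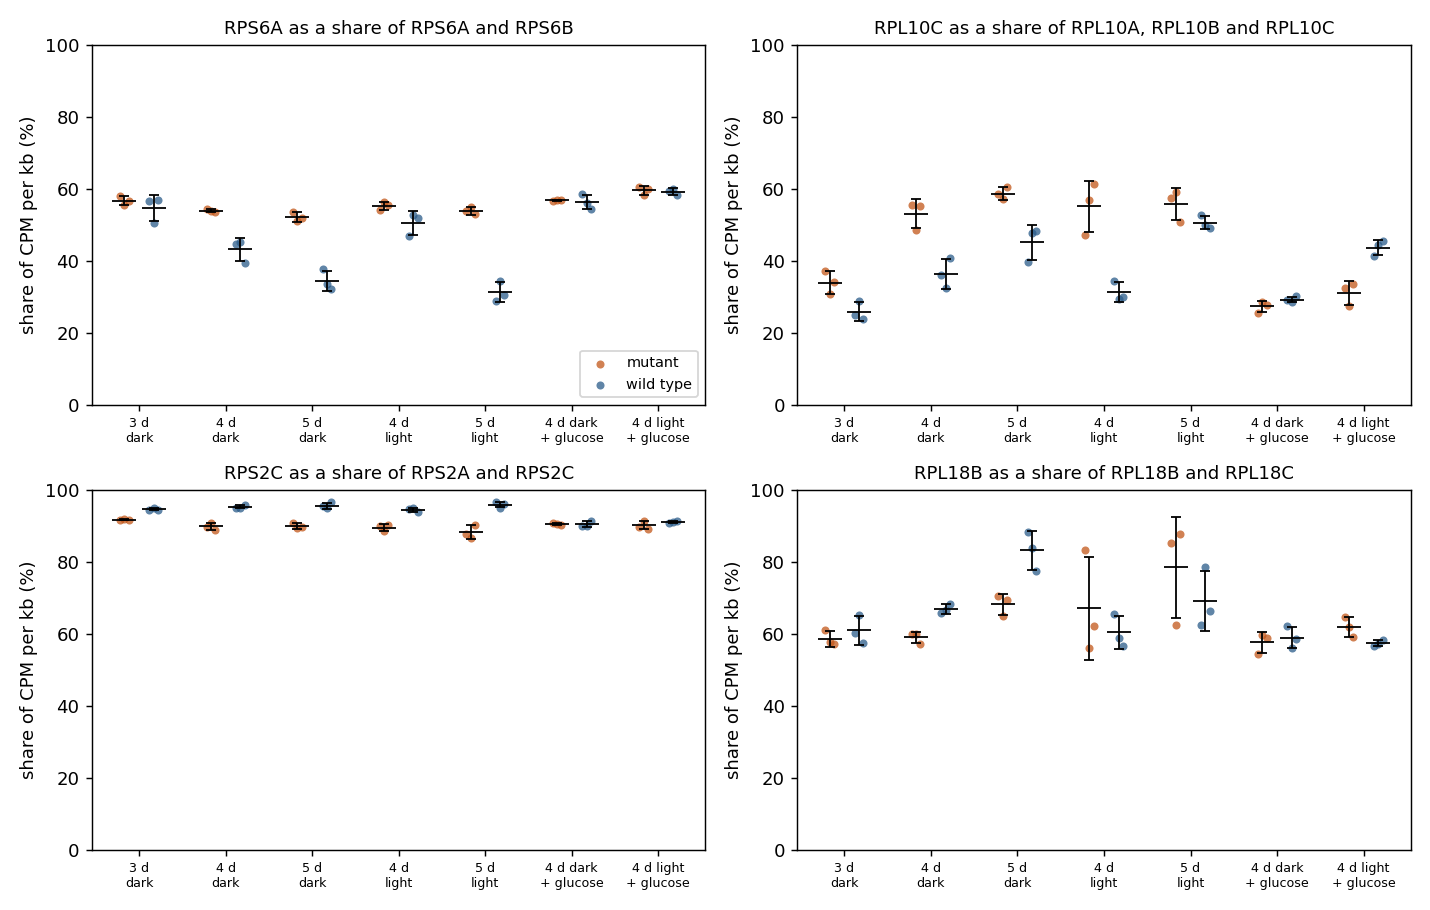
Share of a paralog in the CPM per kb of its family (vertical axis, percent) in each library, by condition, with mutant libraries left of wild type and bars for the mean ± SD of 3. The RPS6A mean is 52.1% in the mutant and 34.4% in wild type at 5 d in the dark and 53.9% in the mutant and 31.2% in wild type at 5 d in light, RPL10C lies higher in the mutant at 3, 4 and 5 d in the dark and at 4 d in light and overlaps at 5 d in light, RPS2C varies little, and RPL18B is scattered in mutant light libraries.

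The divergence of paralogs was widest at 5 d in light. There the highest and lowest paralog of a family differed by a median of 0.66 in log2 fold change, and in 14 of 21 families by over 0.5. Without the 3 mutant light libraries, which leaves mutant library 2 alone at 5 d in light, the median was 0.74, with 15 families over 0.5. The medians were 0.39 at 4 d in the dark (8 families over 0.5), 0.44 at 5 d in the dark (9 families) and 0.33 at 4 d in light (6 families). RPL3 had the widest split at 5 d in light, 3.01 between RPL3B and RPL3A, followed by 1.69 between RPS2A and RPS2C, 1.45 between RPSaB and RPSaA, and 1.38 between RPS6A and RPS6B. RPL18C and RPL18B were 1.36 apart at 5 d in the dark, and RPL9D and RPL9C 1.31 apart. Over the 14 groups the share of a paralog ranged by a median of 10.5 percentage points, and 22 of 49 stayed within 10.

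Near-identical paralogs limit some of these values. Coding sequences of paralogs were 70.2% to 99.1% identical, with 84.7% for RPS6A and RPS6B, 79.5% for RPL3A and RPL3B, 88.4% for RPL10A and RPL10C, and 83.1% for RPS2A and RPS2C. In 49 members over 99% of the 50-base windows inside exons occur only once in the genome, both strands counted. The share was 44.7% in RPL9C, 46.0% in RPL9B, 67.4% in RPS2A and 83.4% in RPL21A, so reads of these genes could be split or lost in counting and their levels are uncertain. Next came RPL10C at 92.7%, RPL5B at 93.1% and RPL10A at 93.7%, so a smaller part of their reads could be affected.

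Other lists of the translation machinery were compared in the same tests. Ribosome biogenesis genes act in the nucleolus and in subunit export. Of 27 such genes, 24 rose and 2 fell in the mutant at 4 d in the dark, with a median of 1.92. Of tested genes 29.5% rose and 28.5% fell there, and 33.4% rose and 26.4% fell at 5 d in light. REIL2, a late 60S maturation factor, rose by 1.96 ± 0.19 and BRX1-2, for 60S assembly, by 2.22 ± 0.23. There were 24 that rose and 2 that fell at 5 d in light, with NOP56 at 3.05 ± 0.30 and NOP58 at 2.74 ± 0.33, core proteins of the particles that methylate ribosomal RNA. At 3 d in the dark 21 of 27 biogenesis genes rose, against 4 of 22 initiation and 3 of 11 elongation factor genes, where 17.3% of tested genes rose. All 11 elongation factor genes rose at 4 d in the dark (median 0.86), among them the eEF1A genes AT1G07940 at 1.65 ± 0.20 and AT1G07930 at 1.45 ± 0.18, near-identical copies. Of 22 initiation factor genes 18 rose and none fell (median 0.69), eIFiso4E, which binds the messenger RNA cap, at 1.19 ± 0.14. The initiation list also holds the eIF5A genes, which RefSeq names elongation factors, and the poly(A)-binding protein genes PAB2, PAB4 and PAB8. With glucose no gene of these 3 lists was called between the genotypes, in the dark or in light, in edgeR. In the dark 0.0% of all tested genes were called in either direction, so no list could have had a call there. In light 4.29% of tested genes were higher and 5.17% lower. Without both dark glucose libraries 2, 2 initiation factor genes were higher in the mutant in the dark and no gene of the other 2 lists was called.

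The list medians at 4 d in the dark stood in the order of biogenesis, ribosomal protein, elongation and initiation genes, beside 0.01 for all tested genes. The eIF5A genes were counted under initiation in this order. In wild type 24 of 27 biogenesis genes rose with glucose in the dark, where 22.0% of tested genes rose. The response was more negative in the mutant for 24 of the 27, where 19.7% of tested genes passed. Without both dark glucose libraries 2 these counts were 21 and 22. In light, where glucose moved few ribosomal protein genes, 17 of 27 biogenesis genes fell with glucose in the mutant, as did 23.2% of tested genes. The response in light was more negative in the mutant for 19, where 16.0% of tested genes passed. From 3 to 4 d in the dark 15 biogenesis genes rose in the mutant, where 11.5% of tested genes rose. In wild type 5 fell and 2 rose, where 12.0% and 12.1% of tested genes did, so these counts are close to the background.

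The 29 nuclear genes of plastid ribosomal proteins, which serve a different ribosome, were compared as well, and at 3 d in the dark none was called in either direction. In the mutant 29 of 29 were lower at 4 d in light (median -1.06), 27 at 5 d in light (-1.20), 26 at 5 d in the dark (-0.81) and 11 at 4 d in the dark (-0.40), and none was higher in any of these. Of tested genes 25.2%, 26.4%, 31.4% and 28.5% were lower in the same 4 comparisons, so the count at 4 d in the dark is close to the background. PRPL12C changed by -1.99 ± 0.26 at 5 d in light. From 3 to 4 d in the dark these genes fell in each genotype, 29 of 29 in the mutant and 24 in wild type. Of tested genes 12.7% fell in the mutant and 12.0% in wild type.

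Markers of cell types were compared between mutant and wild type in the same tests, and most of these lists did not rise with the members. The 5 green tissue markers were all lower in the mutant at 4 and 5 d without glucose, and their summed level at 4 d in the dark was 4369 to 8029 CPM in mutant libraries, against 35571 to 45062 CPM in those of wild type. The 2 shoot apex markers summed to 27.0 to 27.8 CPM in mutant libraries, against 63.3 to 66.2 CPM in those of wild type there, and both were called lower. Of 5 root markers 2 were lower, with sums of 35.1 to 46.1 CPM in mutant libraries, against 60.02 to 63.6 CPM in those of wild type. Of 11 dividing-cell markers, 1 was higher and 2 lower at 4 d in the dark, with sums of 122 to 164 CPM in mutant libraries, against 140.2 to 192 CPM in those of wild type, which overlap. At 5 d in light 7 of these 11 were higher, with sums of 68.4 to 153 CPM in mutant libraries, against 49.6 to 70.1 CPM in those of wild type. Without the 3 mutant light libraries 3 were higher and 1 lower. Of the 11, 1 was higher at 4 d in light and 4 were lower, with sums of 71.9 to 123 CPM in mutant libraries, against 119 to 164 CPM in those of wild type. Of tested genes 29.5% were higher and 28.5% lower in the mutant at 4 d in the dark, and 29.9% and 31.4% at 5 d in the dark. In light the shares were 28.8% and 25.2% at 4 d and 33.4% and 26.4% at 5 d. The dividing-cell counts at 4 d in the dark lie below these shares. No marker gene was at 0 in every library of a group. The part of these markers in the changes of the ribosomal protein genes was not tested.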

How the data were processed

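RNA of whole Arabidopsis seedlings had been extracted with the QIAGEN RNeasy Micro kit and made into libraries by standard Illumina steps, per the labels' protocols. The authors deposited 3 tables of counts per transcript model, made with featureCounts 1.6.2 over exons of TAIR10 per the file headers, with STAR and DESeq2 also named in the submitters' processing notes. Reads overlapping several models were counted for each, per the file headers. The commands in those headers show no option for strand or for multiply mapped reads, and read length is not given in the sources used here. A model of the greatest length stood for each of 32678 genes. The 3 d dark libraries had been deposited as 2 runs whose counts differed by about sampling noise (chi-square per degree of freedom 1.04 to 1.06 in 6 pairs, against 7.12 to 41.3 between libraries), and the runs were summed. A column present in 2 tables with identical values was used once.

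The 42 libraries in 14 groups were fitted together in R 4.3.3 with edgeR 4.0.16 (quasi-likelihood test, TMM scaling, a filter on low counts leaving 22586 genes, 28 residual degrees of freedom, biological coefficient of variation 21.1%). The 25 comparisons comprised 19 pairs of groups and 6 tests of a difference between 2 fold changes, and p-values were adjusted by Benjamini-Hochberg over all tested genes. Counts were simulated for the comparison of mutant and wild type at 4 d in the dark (21757 genes). Of 100 genes changed by 1 on the log2 scale 73% were recovered, and of those changed by 2 100%, with 8 of 21557 unchanged genes called. The simulation gave every gene the same spread and changed few genes, none of low level. In the real comparison 29.5% of tested genes were called higher and 28.5% lower, so these rates need not hold there. Replicate numbers were checked for pairing: of 19 pairs of groups, only mutant and wild type at 3 d in the dark had correlated deviations over 0.1 for every number (0.187, 0.194 and 0.281), and a replicate block there gave 30 calls, against 31 without it. Alternatives were other scalings, DESeq2 1.42.0, no filter, other transcript models, single runs, summed paralogs, separate fits and leaving out libraries. Members were named by a rule: in each comparison the 3 largest and 3 smallest called fold changes, members not called or called against most others, the paralogs that differed most, and RPS6A, RPS6B, RPL9D, RPL3B and RPL10C throughout. Other members were named for their role after their values were seen. The members and gene lists were chosen with earlier results of these data known.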

Additional observations from a re-analysis of the deposited data

Results flagged for a closer look

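The results below are those in which the mutant and wild type responded differently to the same change of age, light or sugar, by edgeR's test of the difference between fold changes. From 3 to 4 d in the dark the change was more positive in the mutant for 51 of 60 ribosomal protein genes, where 5.46% of tested genes passed in that direction, and for 9 to 56 when 1 library at a time was left out. The response to glucose at 4 d in the dark was more negative in the mutant for 57 members (background 19.7%), and in light for 5 (background 16.0%, above the share of members). The response to light was more negative in the mutant for 16 members at 4 d (background 4.34%), and for 1 to 46 without single libraries. At 5 d it was more positive for 2 members, RPL18B and RPP0C, and more negative for 1, RPL7D, shares below the background of 16.2% and 11.2%. The controls of these tests overlap, because the 4 d dark libraries enter the tests of age, light and glucose.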

How the results depend on the processing

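The results were recomputed under each alternative, and the cause of the differences was not tested. The shares of all tested genes, here and above, are those of the main fit. Counts of members under an alternative therefore have no such share beside them. Scaled by library totals alone, the median of all genes shifted by between -0.25 and 0.45 on the log2 scale over the comparisons. Under that scaling 50 members were higher in the mutant at 3 d in the dark, and the median of the members was 1.63 at 4 d in the dark, 1.34 at 5 d in the dark and 1.53 at 5 d in light. In wild type the median was 1.25 for glucose in the dark, 0.49 for glucose in light (32 members higher, 0 lower) and -0.10 for light at 5 d (0 higher, 4 lower). For the differences between genotypes, the median was 0.11 for light at 5 d (0 lower) and -1.33 for glucose in the dark, and 15 were lower for glucose in light.

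Fitting only the groups compared gave 20 members higher in the mutant at 3 d in the dark and 25 with glucose in light. It gave 5 members higher in light in wild type at 5 d, 13 higher and 2 lower with glucose in light in wild type, and 1 higher and 4 lower with glucose in light in the mutant. At 4 d against 3 d it gave 1 member higher in wild type and 11 higher in the mutant, and at 5 d against 4 d 5 higher in wild type. The light response differed for 10 members at 4 d (lower) and for 1 at 5 d (higher).

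Leaving out the 3 mutant light libraries with high KIN10 left mutant library 2 alone at 5 d in light. Without these 3 libraries the median at 5 d in light was 1.36, and that of light against dark in the mutant at 5 d was 0.33. With glucose in light 0 members rose in the mutant. The genotype difference in the light response then had 5 lower at 4 d and 0 lower at 5 d with a median of 0.22, and that in glucose in light had 10 lower. Without both dark glucose libraries numbered 2, 2 members were higher in the mutant, 2 rose and 4 fell with glucose in the mutant, and the median genotype difference was -0.84.

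DESeq2 called 10 members with glucose in light between mutant and wild type, 1 higher in light in the mutant at 5 d and 2 lower in the mutant at 5 d against 4 d. In DESeq2 the tests of genotype differences had 31 lower for light at 4 d, 2 lower for light at 5 d and 1 lower from 4 to 5 d. Without the filter on low counts 1 member was higher in light in wild type at 5 d, and 1 was higher in the genotype difference of light at 5 d. With RLE size factors 1 was higher in light in the mutant at 5 d and 2 were lower in the genotype difference of light at 5 d, as with counts summed over models. With paralogs summed, each member took the value of its family, and the counts are of members, not of families. Then 0 members were higher in light in wild type at 5 d. In the mutant 0 rose with glucose in the dark and 5 fell with glucose in light. There 0 rose from 3 to 4 d and 0 fell from 4 to 5 d. In the genotype differences 0 (light, 5 d) and 3 (glucose, light) were lower.

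The replicate block gave 1 member higher in light at 5 d in wild type and 1 in the mutant. At 4 d in the dark it gave 60 members higher in the mutant. Apart from 3 d in the dark the numbers did not pair the samples, with correlations of deviations between -0.787 and 0.417 and 18 of 57 pairs over 0.1.

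Leaving out 1 library at a time, the count higher in the mutant ran from 9 to 38 at 3 d in the dark, 31 to 55 at 4 d in light and 0 to 5 with glucose in light, and the median at 5 d in the dark from 0.98 to 1.26. Light at 5 d gave 0 to 1 higher and 1 to 3 lower in wild type, and 0 to 1 higher and 0 to 7 lower in the mutant. Glucose in the mutant gave 1 to 2 higher and 4 to 9 lower in the dark, and 1 to 3 higher and 3 to 12 lower in light; in wild type in light it gave 2 to 11 higher and 0 to 1 lower. From 3 to 4 d 32 to 51 fell in wild type and 3 to 4 rose in the mutant; from 4 to 5 d 1 to 3 rose in wild type and 0 to 1 fell in the mutant. For the genotype differences, light gave 1 to 46 lower at 4 d, and 1 to 3 higher and 1 to 5 lower at 5 d with medians of -0.32 to 0.0011. Glucose in light gave 3 to 8 lower, the step from 3 to 4 d 9 to 56 higher, and that from 4 to 5 d medians of -0.40 to -0.14.

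Of 130 called values of single genes, 36 lost the call without at least 1 single library. They were RPL10aA, RPL19A, RPS11A, RPS6A and RPS6B at 3 d in the dark, RPS2C at 4 d and RPS13A at 5 d in the dark, RPP0C, RPS3A, RPS3C, RPL18B and KIN10 at 4 d and RPP0B and RPS6B at 5 d in light, all 6 with glucose in light, and others in the comparisons within a genotype and between fold changes. Signs turned in 12 tests, none of them of a called value. RPS2C stood at 0.24 at 4 d in light and 0.27 at 5 d in light with library totals, and at 0.072 at 5 d in light without the 3 mutant light libraries. Without single libraries RPS2C ran from -0.15 to 0.067 at 4 d in light, RPL18B from -0.43 to 0.37 and RPS2C down to -0.027 at 5 d in the dark, RPP0B from -0.025 to 0.28 and RPS10B from -0.0075 to 0.29 at 4 d in light, and RPL3A down to -0.0005 at 3 d in the dark. RPL18B at 5 d in the dark stood at 0.063 with library totals, and the genotype difference of RPS2C for glucose in the dark at 0.11 without both libraries numbered 2. The number of libraries, 3 in each group, limits what single members can show.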

Other observations

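Some genes of the same assembly steps moved in opposite directions. In wild type in the dark, glucose changed BRX1-1 by -2.06 ± 0.21 and its paralog BRX1-2 by 1.69 ± 0.23, glucose over none. At 5 d in the dark REIL1 differed by -1.44 ± 0.14 between mutant and wild type and LSG1-2, a GTPase of 60S export, by 2.14 ± 0.24. At 3 d in the dark, where 31 ribosomal protein genes were called, NUC2, a nucleolin gene, stood at 2.86 ± 0.43 and RID2 at 1.27 ± 0.27. At 4 d in light NOP56 stood at 2.03 ± 0.29.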
